A study of Mus musculus with 45 samples.

Results

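A set of 112 autosomal genes whose transcripts were nearly absent from the islets of C57BL/6J or NZO/HlLtJ mice, while present in another strain, was described from bulk RNA sequencing. Levels are given in CPM, which put every library on a total of 1000000 counts. A gene was a member when it lay on chromosomes 1 to 19, when its median over the C57BL/6J or over the NZO/HlLtJ libraries was under 0.1 CPM, when its median in another strain was at least 1 CPM, and when its median over 12 CAST/EiJ libraries was at least 0.1 CPM. The 3 remaining CAST/EiJ libraries, females on 44% fat replicates 1, 2 and 4, were not used in that median, and Mndal, Ifi202b and Mx1 were left out. The matrix held 22904 genes, of which 22073 were autosomal and 14074 of these reached 1 CPM in a strain. Of the 112 members, 37 were lacking in C57BL/6J alone, 28 in NZO/HlLtJ alone and 47 in both. Because strain medians chose these genes, the differences between strains below are descriptions without a test, and tests were made only of diet and sex within strains that had the transcript.

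The study measured polyadenylated RNA from pancreatic islets of 3 inbred mouse strains fed a control or a high fat, high sugar diet, and asked how strain and diet act together. The reference strain C57BL/6J was set beside NZO/HlLtJ, which becomes obese and tends to develop diabetes, and beside CAST/EiJ, descended from wild mice of the castaneus subspecies. All mice were wild type and had no other treatment. Females and males of each strain received 10% fat with fiber or 44% fat with fiber from 6 weeks of age, and islets were collected at 16 weeks. Crossing strain, sex and diet gave 12 groups and 45 libraries in all, 4 per group but only 3 for NZO/HlLtJ males on 10% fat, NZO/HlLtJ males on 44% fat and CAST/EiJ males on 10% fat. C57BL/6J thus had 16 libraries, CAST/EiJ 15 and NZO/HlLtJ 14.

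Library totals ranged from 57.2 to 110 M counts, with a median of 84.4 M. Hormone-secreting beta cells were well represented, since 10 of their markers summed to between 47513 and 173646 CPM in all libraries. Enzyme genes of acinar cells, the exocrine cells that surround islets, ranged from 494 to 317743 CPM in sum over 15 genes. Several libraries held low levels of transcripts that their strain otherwise lacked. The mitochondrial transcript mt-Co2 was at 154, 32.5 and 42.8 CPM in these 3 CAST/EiJ libraries, against 2.35 to 8.01 CPM in the other 12 CAST/EiJ libraries. Summed over the 84 members lacking in C57BL/6J, its libraries held 2.75 to 26.0 CPM with a median of 4.66, and the highest value was that of male 44% fat replicate 2. Summed over the 75 members lacking in NZO/HlLtJ, its libraries held 1.53 to 8.60 CPM with a median of 2.79, and the highest value was that of male 44% fat replicate 3. The tests below were repeated without 5 of these libraries, namely the 3 CAST/EiJ ones, C57BL/6J female 44% fat replicate 2 and NZO/HlLtJ male 44% fat replicate 3. These 5 were taken from earlier results of these data, and C57BL/6J male 44% fat replicate 2 was not among them. Of its 26.0 CPM, Gm5409 made up 6.58, Igha 6.10 and Ccl21a 4.05 CPM. Whether these libraries hold RNA of another strain was not tested.

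Inbred strains differ in the genes they transcribe because their genomes carry different deletions, duplications, promoter variants and inserted copies. A retrogene or processed pseudogene arises when a messenger RNA is copied back into DNA and inserted elsewhere, so that it lacks introns and can match its parent gene almost letter by letter. A short read from such a copy may fit the parent equally well, and counting programs differ in how they assign it. The reference genome used for mouse is that of C57BL/6J, so a read from another strain is placed where it best matches that strain's sequence.

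Several of the most abundant members were copies of other genes, and the windows below show how closely 3 of them match their parents. Each window is 120 bases of the coding sequence, taken from the GENCODE vM21 transcripts on GRCm38 and written 5′ to 3′ on the transcript strand, and capitals mark bases that differ between member and parent. Gm13341 (chr2:22587411-22587530, minus strand) matches mt-Co2 (chrM:7457-7576, plus strand), which encodes a subunit of cytochrome c oxidase, and Gm10709 (chr9:7751905-7752024, plus strand) matches Rpl29 (chr9:106431147-106431266, plus strand), a ribosomal protein gene.
Gm13341: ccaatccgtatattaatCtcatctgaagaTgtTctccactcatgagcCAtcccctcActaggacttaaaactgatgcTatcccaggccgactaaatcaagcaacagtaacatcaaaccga
mt-Co2: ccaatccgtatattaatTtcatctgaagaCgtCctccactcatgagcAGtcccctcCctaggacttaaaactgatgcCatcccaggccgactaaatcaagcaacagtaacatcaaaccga
Gm10709: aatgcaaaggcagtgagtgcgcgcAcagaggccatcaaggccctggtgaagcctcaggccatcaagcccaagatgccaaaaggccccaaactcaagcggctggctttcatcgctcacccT
Rpl29: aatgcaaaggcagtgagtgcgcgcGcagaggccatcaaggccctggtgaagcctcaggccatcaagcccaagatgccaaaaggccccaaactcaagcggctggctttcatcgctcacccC
These windows were chosen to hold the most differences. Over the whole coding sequence, 16 of 669 aligned bases differed between Gm13341 and mt-Co2, an identity of 97.6%, and 12 further bases fell in gaps. Gm10709 and Rpl29 differed at 4 of 480 bases, an identity of 99.2%.

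No base differed in the next window, which is therefore printed once for member and parent. Pgk1-rs7 (chr12:10900121-10900240, minus strand) is a copy of Pgk1 on the X chromosome, which encodes the glycolytic enzyme phosphoglycerate kinase.
Pgk1-rs7: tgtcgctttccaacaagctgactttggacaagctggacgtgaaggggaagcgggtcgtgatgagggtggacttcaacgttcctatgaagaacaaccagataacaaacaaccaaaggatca
The Pgk1-rs7 window equals coding bases 2 to 121 of Pgk1, and identity was 100% over 1250 of its 1251 coding bases.

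Each class kept to the pattern of its rule when its members were summed per library. The 37 genes lacking in C57BL/6J alone summed to 1.33 to 16 CPM in its libraries, to 159 to 578 CPM in NZO/HlLtJ and to 146 to 372 CPM in CAST/EiJ. The 28 genes lacking in NZO/HlLtJ alone summed to 0.841 to 3.84 CPM there, to 70.4 to 146 CPM in C57BL/6J and to 67.0 to 203 CPM in CAST/EiJ. The 47 genes lacking in both summed to 0.816 to 9.98 CPM in C57BL/6J, to 0.478 to 4.75 CPM in NZO/HlLtJ and to 325 to 756 CPM in CAST/EiJ. The highest strain median was in CAST/EiJ for 82 members, in NZO/HlLtJ for 19 and in C57BL/6J for 11. It ranged from 1.02 to 187 CPM over members with a median of 2.20 CPM, and 17 members reached 10 CPM while 49 stayed under 2 CPM. The highest C57BL/6J library lay below the lowest of the 12 CAST/EiJ libraries used in the rule for 80 of the 112 members. These were 26 of the 37 lacking in C57BL/6J alone, 46 of the 47 lacking in both and 8 of the 28 lacking in NZO/HlLtJ alone. The highest NZO/HlLtJ library lay below that lowest CAST/EiJ library for 77 members. In the same order of classes, these were 8, 46 and 23. The choice of members favours this separation, and the same count was not made over all genes.

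**Figure D1:**
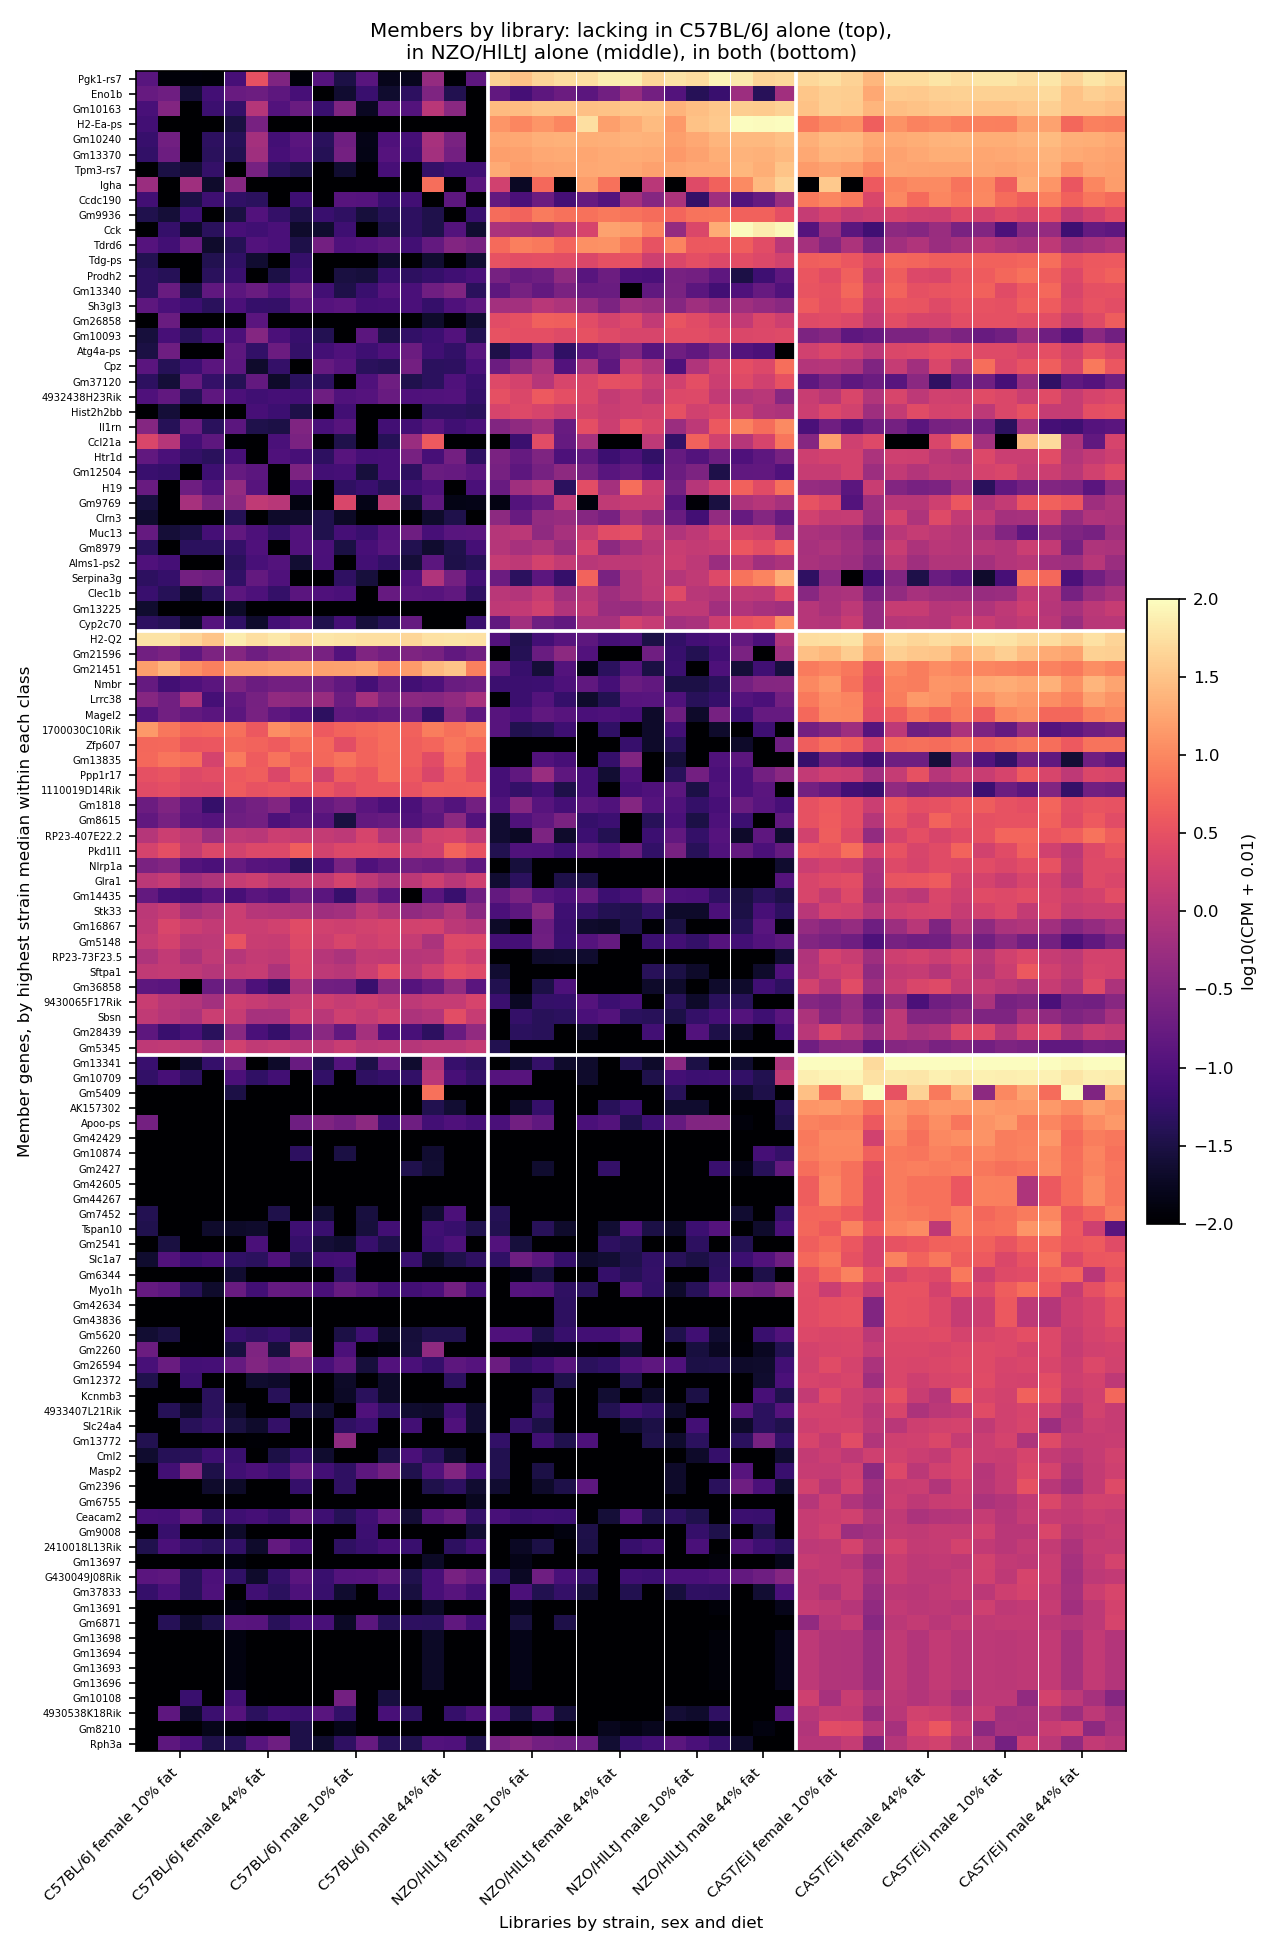
Level of 111 of the 112 members (rows) in each of the 45 libraries (columns, grouped by strain), coloured by log10 of CPM plus 0.01. The members lacking in C57BL/6J alone are dark in its 16 libraries, those lacking in NZO/HlLtJ alone in its 14 libraries, and those lacking in both have light cells in the 15 CAST/EiJ libraries.

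Members lacking in both C57BL/6J and NZO/HlLtJ were led by Gm13341 and Gm10709. Gm13341 ranged from 50.2 to 516 CPM in CAST/EiJ with a median of 187, from 0 to 0.868 CPM in C57BL/6J with a median of 0.042, and from 0 to 0.826 CPM in NZO/HlLtJ with a median of 0.012. Gm10709 ranged from 56.8 to 86.1 CPM in CAST/EiJ with a median of 73.4, and its medians were 0.044 CPM in C57BL/6J and 0.035 CPM in NZO/HlLtJ. For both genes the highest C57BL/6J library was male 44% fat replicate 2 and the highest NZO/HlLtJ library was male 44% fat replicate 3, which held Gm10709 at 1.09 and 1.27 CPM. Gm5409, a trypsinogen pseudogene close to the digestive enzyme gene Try10, varied most in CAST/EiJ, from 0.293 to 152 CPM with a median of 16.9. Its highest CAST/EiJ values, 152 CPM in female 10% fat replicate 4 and 91.5 CPM in male 44% fat replicate 2, lay in libraries where the 15 acinar genes made up 31.8% and 15.5% of all counts. The part of acinar RNA in the level of Gm5409 was not tested. In bulk islets, fewer cells of a type and less RNA per cell cannot be told apart.

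Other leading members lacking in both strains were AK157302 with a CAST/EiJ median of 13.2 CPM, Apoo-ps with 9.10, Gm42429 with 8.74, Gm10874 with 8.18, Gm2427 with 7.48, Gm42605 and Gm44267 with 6.56 each, and Gm7452 with 6.45. Gm42429 (chr5:44134393-44134950, plus strand) rounded to a count of 0 in every C57BL/6J and NZO/HlLtJ library. Fractions of a count were left in some of them, since no gene of the matrix was at 0 in more than 22 libraries. With these rounded counts and a floor of 3 counts pooled over each strain, its CAST/EiJ level was at least 3855-fold higher than in C57BL/6J. Against NZO/HlLtJ it was at least 3515-fold higher. These bounds cover counting error only and leave out the fractions of a count. All 558 bases of its transcript are identical to Gm42427, which was at medians of 300 CPM in C57BL/6J, 319 in NZO/HlLtJ and 45.6 in CAST/EiJ, so the pair together was lower in CAST/EiJ, at 53.5 CPM. The level of Gm42429 alone is therefore uncertain. Gm42605 and Gm44267 had identical counts in every library although they are annotated on different chromosomes, so neither can be given a level of its own. Their joint values also rounded to counts of 0 in both strains. By the same floor they were at least 2746-fold below CAST/EiJ for C57BL/6J and at least 2504-fold for NZO/HlLtJ. Their transcripts of 385 bases are 99.7% identical to Slc38a6, an amino acid transporter gene at 77.6, 63.8 and 159 CPM in C57BL/6J, NZO/HlLtJ and CAST/EiJ. In CAST/EiJ each made up 0.510% to 5.65% of its pair with Slc38a6, so these folds too are uncertain.

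Further members lacking in both strains encode known proteins and were lower. Tspan10, a tetraspanin, had a CAST/EiJ median of 6.12 CPM with a range of 0.115 to 13.3. Slc1a7, a glutamate transporter, was at 3.92 CPM, and Kcnmb3, an auxiliary subunit of calcium-activated potassium channels, was at 1.85 CPM with 1.02 to 5.26 over libraries. Slc24a4, a sodium, calcium and potassium exchanger, was at 1.66 CPM, Masp2, a protease of the lectin pathway of complement, at 1.43, and Rph3a, an effector of the exocytosis protein Rab3, at 1.02. All of these had medians under 0.1 CPM in the other strains, and no library of those strains exceeded 0.331 CPM for any of them.

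Among members lacking in C57BL/6J alone, Pgk1-rs7 had the highest level. It was at 31.6 to 84.8 CPM in NZO/HlLtJ with a median of 54.0, at 25.1 to 63.2 CPM in CAST/EiJ with a median of 53.2, and at a median of 0.048 CPM in C57BL/6J. Female 44% fat replicate 2 of C57BL/6J stood apart at 3.26 CPM, and the next highest of its 16 libraries was at 0.461 CPM. The ribosomal protein pseudogenes Gm10163, Gm10240 and Gm13370, all copies of Rpl21, had medians of 32.2, 22.0 and 19.3 CPM in NZO/HlLtJ and 31.1, 21.7 and 19 CPM in CAST/EiJ. Tpm3-rs7, a copy of the tropomyosin gene Tpm3, was at 19 CPM in NZO/HlLtJ, 16.5 in CAST/EiJ and 0.023 in C57BL/6J. Eno1b, a copy of the glycolytic enzyme gene Eno1, was at 39.3 CPM in CAST/EiJ and 0.059 in C57BL/6J, and at 0.134 in NZO/HlLtJ was barely above the threshold there.

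H2-Ea-ps (chr17:34342933-34344643, minus strand) encodes the alpha chain of the MHC class II molecule I-E, which presents peptides to T cells. C57BL/6 mice are known to lack this transcript because the promoter is deleted, and the gene is annotated as a pseudogene in their reference genome. The transcript was at 0 in 13 of 16 C57BL/6J libraries, and the highest of them, female 44% fat replicate 2, was at 0.241 CPM. It was at 9.79 to 179 CPM in NZO/HlLtJ with a median of 23.6 and at 4.50 to 16.6 CPM in CAST/EiJ with a median of 8.68. H2-Eb1, which encodes the partner beta chain, was present in all 3 strains with medians of 48.8 CPM in C57BL/6J, 79.4 in NZO/HlLtJ and 26.3 in CAST/EiJ.

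Among the other genes lacking in C57BL/6J alone were hormones, enzymes and receptors at lower levels. Cck encodes cholecystokinin, a gut peptide hormone, and had medians of 0.029 CPM in C57BL/6J, 5.65 in NZO/HlLtJ and 0.248 in CAST/EiJ. Tdrd6, a tudor protein of germ cells, was at 0.099, 5.50 and 0.696 CPM in the same order of strains. Ccdc190 was at 0.047, 0.156 and 7.57 CPM, and Gm9936 at 0.028, 6.26 and 1.99 CPM. Prodh2, the hydroxyproline dehydrogenase, was at 0.036, 0.146 and 3.94 CPM, Sh3gl3, an endophilin of membrane traffic, at 0.078, 0.555 and 3.32 CPM, and Htr1d, a serotonin receptor, at 0.072, 0.133 and 1.66 CPM. Il1rn, the antagonist of the interleukin 1 receptor, was at 0.070, 1.94 and 0.116 CPM. Igha, the constant region of immunoglobulin A, was at a median of 0 in C57BL/6J, 3.71 in NZO/HlLtJ and 9.67 in CAST/EiJ, with 0 to 43.6 CPM over NZO/HlLtJ libraries and 6.10 CPM in C57BL/6J male 44% fat replicate 2.

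Members lacking in NZO/HlLtJ alone were led by H2-Q2 (chr17:35342242-35346762, plus strand), an MHC class Ib gene. H2-Q2 was at 31.8 to 71.2 CPM in C57BL/6J with a median of 57, at 23.9 to 63.5 CPM in CAST/EiJ with a median of 53.3, and at 0.022 to 0.910 CPM in NZO/HlLtJ with a median of 0.082. The NZO/HlLtJ library at 0.910 CPM was male 44% fat replicate 3, and the other 13 did not exceed 0.145 CPM. The MHC class I genes of this region are closely related, so the level of a single gene is uncertain. Zfp607, a zinc finger gene, was at a median of 5.17 CPM in C57BL/6J, 6.09 in CAST/EiJ and 0 in NZO/HlLtJ, where its highest library was at 0.192 CPM.

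Several members lacking in NZO/HlLtJ alone were far higher in CAST/EiJ than in C57BL/6J. Nmbr, the neuromedin B receptor, had medians of 0.150 CPM in C57BL/6J, 0.077 in NZO/HlLtJ and 12.9 in CAST/EiJ. Lrrc38, an auxiliary subunit of calcium-activated potassium channels, was at 0.361, 0.069 and 11.2 CPM, and Magel2, an imprinted gene of the Prader-Willi region, at 0.132, 0.096 and 7.39 CPM. Gm21596, a copy of the chromatin gene Hmgb1, was at 0.243, 0.056 and 31.2 CPM, and Nlrp1a, an inflammasome sensor, at 0.128, 0 and 2.53 CPM. The opposite order was seen for 1700030C10Rik with 6.24, 0.020 and 0.233 CPM, Gm13835 with 5.45, 0.008 and 0.133 CPM, and 1110019D14Rik with 3.45, 0.068 and 0.183 CPM. Ppp1r17, a phosphatase inhibitor, was at 3.52, 0.089 and 1.63 CPM, Glra1, a glycine receptor subunit, at 1.23, 0 and 2.16 CPM, and Pkd1l1, a polycystin relative, at 2.36, 0.090 and 2.66 CPM.

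Strains that did not lack a member by the limit of 0.1 CPM often differed in its level. Of the 37 genes lacking in C57BL/6J alone, the NZO/HlLtJ and CAST/EiJ medians lay within 1.5-fold of each other for 11, while the NZO/HlLtJ median was over 4-fold higher for 7 and over 4-fold lower for 8. Of the 28 genes lacking in NZO/HlLtJ alone, the C57BL/6J and CAST/EiJ medians lay within 1.5-fold for 5, the C57BL/6J median was over 4-fold higher for 6 and it was over 4-fold lower for 10. The lower median was often barely above the limit. Genes over 4-fold lower in NZO/HlLtJ were at 0.111 to 0.156 CPM there, except Sh3gl3. Those over 4-fold lower in C57BL/6J were at 0.107 to 0.154 CPM there, except Gm21596 and Lrrc38. These genes were thus nearly lacking in both strains. Genes with close medians included Pgk1-rs7, the Rpl21 copies, Tpm3-rs7, H2-Q2 and Zfp607.

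**Figure D2:**
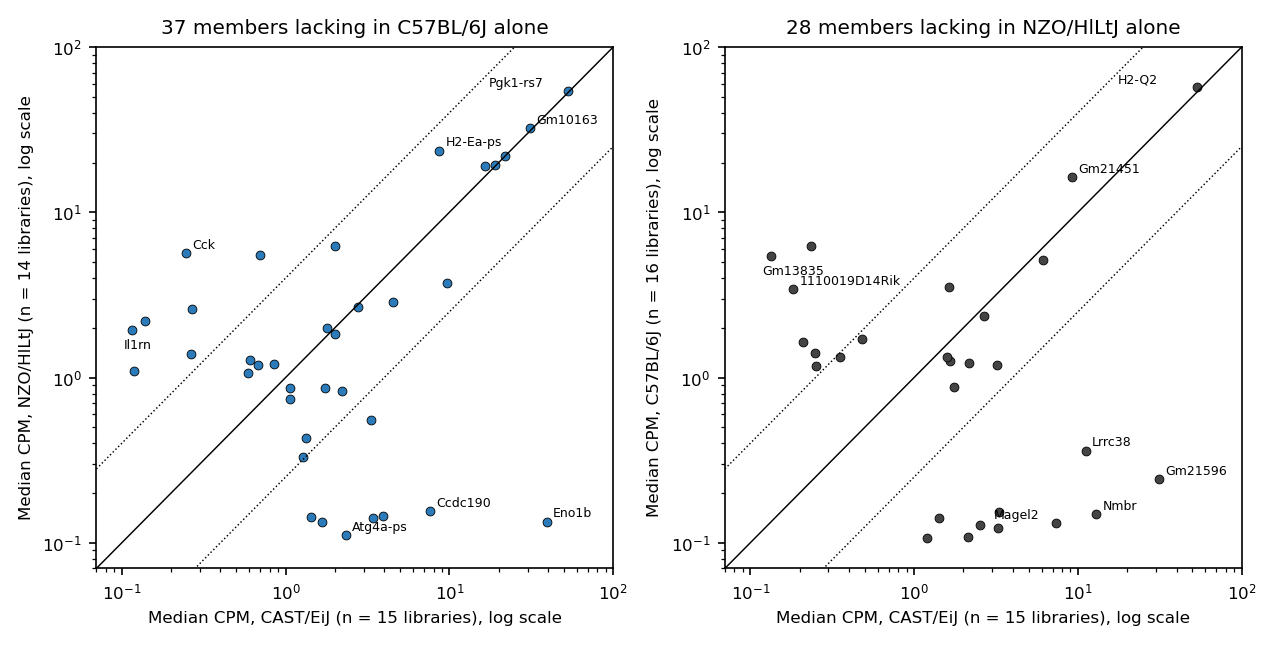
Median CPM in the strain that has the transcript against the CAST/EiJ median, both on log10 axes, for the 37 members lacking in C57BL/6J alone and the 28 lacking in NZO/HlLtJ alone. The solid line marks equal medians and the dotted lines 4-fold differences; 11 of 37 and 5 of 28 members lie within 1.5-fold of the solid line.

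The thresholds cut through a continuous range. Just inside the limit of 0.1 CPM in C57BL/6J were Gm26594, Tdrd6 and Gm13340 at 0.0995, 0.0991 and 0.0983 CPM, and just outside were Slc34a2, St6gal2 and Ltb at 0.1004, 0.1007 and 0.102 CPM. In NZO/HlLtJ, Gm1818, Magel2 and Pkd1l1 were inside at 0.0989, 0.0957 and 0.0901 CPM, and Gm26641, A230056P14Rik and Riiad1 outside at 0.103, 0.103 and 0.104 CPM. At the limit of 1 CPM, Rph3a, Gm8210 and Cyp2c70 were inside at 1.02, 1.03 and 1.06 CPM, and Ctse lay just below it at 0.992 CPM. At the CAST/EiJ limit over 12 libraries, Il1rn, Gm13835 and Serpina3g were inside at 0.110, 0.112 and 0.127 CPM, and Wfdc18, Krt17 and Gbp2b outside at 0.0914, 0.0857 and 0.0797 CPM. Of all values that made up the lacking-strain medians, 44.0% rounded to a count of 0, and most of these were fractions of a count above 0, which made up 34.0% of all values.

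The members differed in kind from other transcribed autosomal genes. By GENCODE vM21, 56 of the 112 were protein-coding (50%), 36 were pseudogenes (32.1%), 11 were long non-coding RNAs, 8 were awaiting experimental confirmation of their type and 1 was an immunoglobulin gene segment. Among the 14074 autosomal genes at 1 CPM or more in a strain, 92.7% were protein-coding and 1.41% were pseudogenes. Among 130 autosomal genes lacking in CAST/EiJ by the mirrored rule, 65.4% were protein-coding and 10.8% were pseudogenes. These shares describe the gene sets and were not tested.

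A close copy elsewhere in the genome was common among members. A copy was a transcript of another gene with at least 95% identity over at least 80% of the member's longest transcript. Such a copy existed for 53 of 112 members (47.3%), against 369 of 14038 autosomal genes at 1 CPM or more with a transcript of known sequence (2.63%), and against 34 of 129 genes lacking in CAST/EiJ (26.4%). The share was 88.9% of the 36 pseudogene members and 63.8% of all 199 expressed autosomal pseudogenes. It was 25.0% of the 56 protein-coding members and 1.46% of all 13045 expressed protein-coding autosomal genes. By class, 31 of the 47 members lacking in both strains had a copy, 14 of the 37 lacking in C57BL/6J alone and 8 of the 28 lacking in NZO/HlLtJ alone. No gene of the matrix was at 0 in more than 22 libraries. A gene lacking in both C57BL/6J and NZO/HlLtJ thus needed counts, or fractions of a count, in some of their libraries. The 15 CAST/EiJ libraries alone do not reach this limit. A close copy could supply such fractions, so the limit may favour members with a copy, which was not tested.

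**Figure D3:**
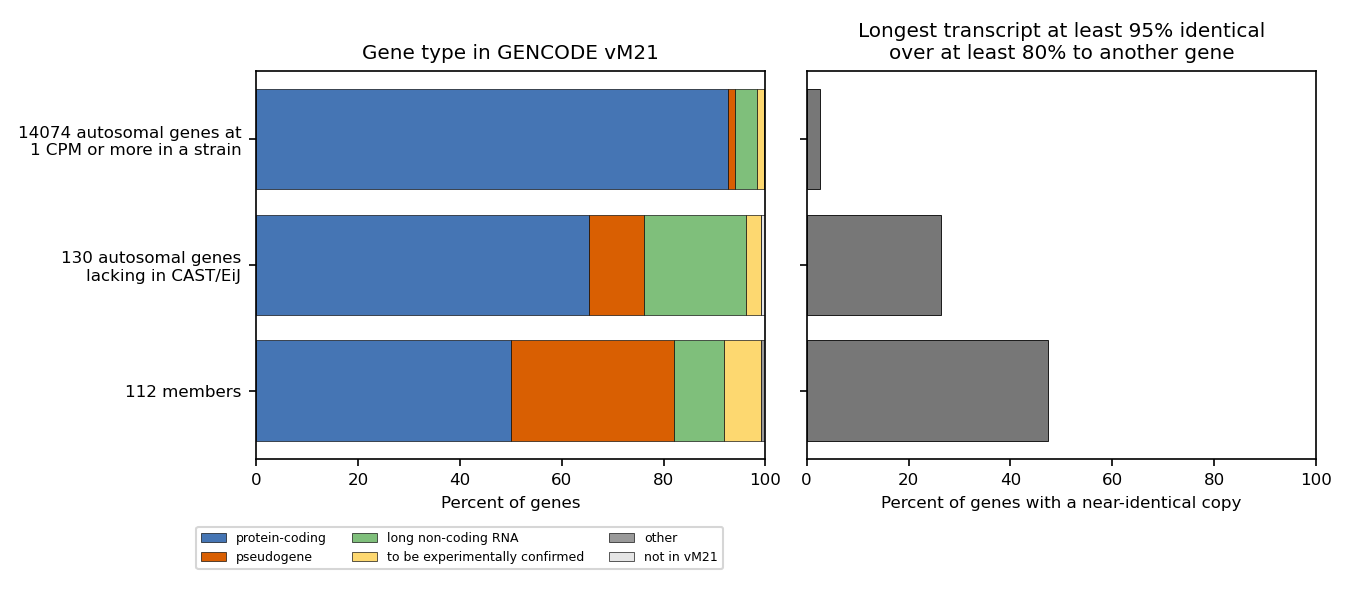
Share of genes of each GENCODE type and share of genes with a close copy, in percent, for the members, for autosomal genes at 1 CPM or more in a strain and for autosomal genes lacking in CAST/EiJ. Pseudogenes made up 32.1%, 1.41% and 10.8% of the sets, and genes with a close copy 47.3%, 2.63% and 26.4%.

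For some pairs, the parent gene was counted at a lower level in the strains where the member was present. Rpl29 was at 97.1 to 142 CPM in C57BL/6J, 107 to 156 CPM in NZO/HlLtJ and 12.5 to 29.9 CPM in CAST/EiJ, where Gm10709 was present. The member took a median of 82.0% of the summed counts of this pair in CAST/EiJ. The pair together was at medians of 109 CPM in C57BL/6J, 124 in NZO/HlLtJ and 89.7 in CAST/EiJ, so the sum differed less between strains than Rpl29 alone. As printed above, this pair differs at few bases over the coding sequence, so a read from many stretches could be counted for either.

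Other pairs showed the same arithmetic to different degrees. Eno1 was at medians of 132 CPM in C57BL/6J, 150 in NZO/HlLtJ and 99.6 in CAST/EiJ, where Eno1b made up 28.4% of the pair. Apoo, a gene of the mitochondrial inner membrane, was at 18.5, 20.6 and 6.69 CPM, and Apoo-ps made up 57% of the pair in CAST/EiJ. Zfp59, a zinc finger gene, was at 10.2, 9.01 and 4.54 CPM, and Gm7452 made up 59.7% of the pair in CAST/EiJ. Tpm3 was at 73.2, 63.8 and 62.1 CPM, and Tpm3-rs7 made up 22.2% of the pair in NZO/HlLtJ and 20.7% in CAST/EiJ.

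Not all pairs followed that arithmetic. Pgk1 was at 95.6 CPM in C57BL/6J, 83.1 in NZO/HlLtJ and 73.3 in CAST/EiJ. With Pgk1-rs7, which made up 36.8% of the pair in NZO/HlLtJ and 42.8% in CAST/EiJ, the sums were 95.7, 147 and 126 CPM, further apart than Pgk1 alone. Hmgb1 was at 138, 114 and 120 CPM although Gm21596 made up 22.3% of the pair in CAST/EiJ. Loxl2, a lysyl oxidase relative, was at 57.6, 54.8 and 20.4 CPM, whereas its copy Gm21451 was at 16.3, 0.043 and 9.24 CPM, so both were lower in CAST/EiJ than in C57BL/6J.

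Over the 51 pairs whose copy reached 1 CPM, the copy was lower in the strain or strains with the member for 24, and the sum varied less across strains than the copy alone for 30. Among the 24 pairs where the member made up at least 10% of the pair in a strain, these counts were 15 and 19, and the median ratio of the highest to the lowest strain was 1.40 for the sum and 1.65 for the copy. Among the other 27 pairs the counts were 9 and 11. A copy that is low where the member is present raises the member's share, so this contrast is partly built into the split. By class, the copy was lower for 9 of 13 pairs of members lacking in C57BL/6J alone. It was lower for 2 of 8 pairs of members lacking in NZO/HlLtJ alone and 13 of 30 of those lacking in both. A strain at 0.1 CPM or more was taken to have the member, and these counts depend on that limit. Eno1 did not count as lower, because NZO/HlLtJ, with Eno1b at 0.134 CPM, had Eno1 at 150 CPM. Tfb2m, the copy of Gm1818, did not count either, because C57BL/6J, with Gm1818 at 0.154 CPM, had it at 19.6 CPM. Shares are of counts and take no account of transcript length, and the 52 pairs involve only 38 distinct copies, so they are not independent. How reads were divided within pairs was not tested, since reads were not analysed here.

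**Figure D4:**
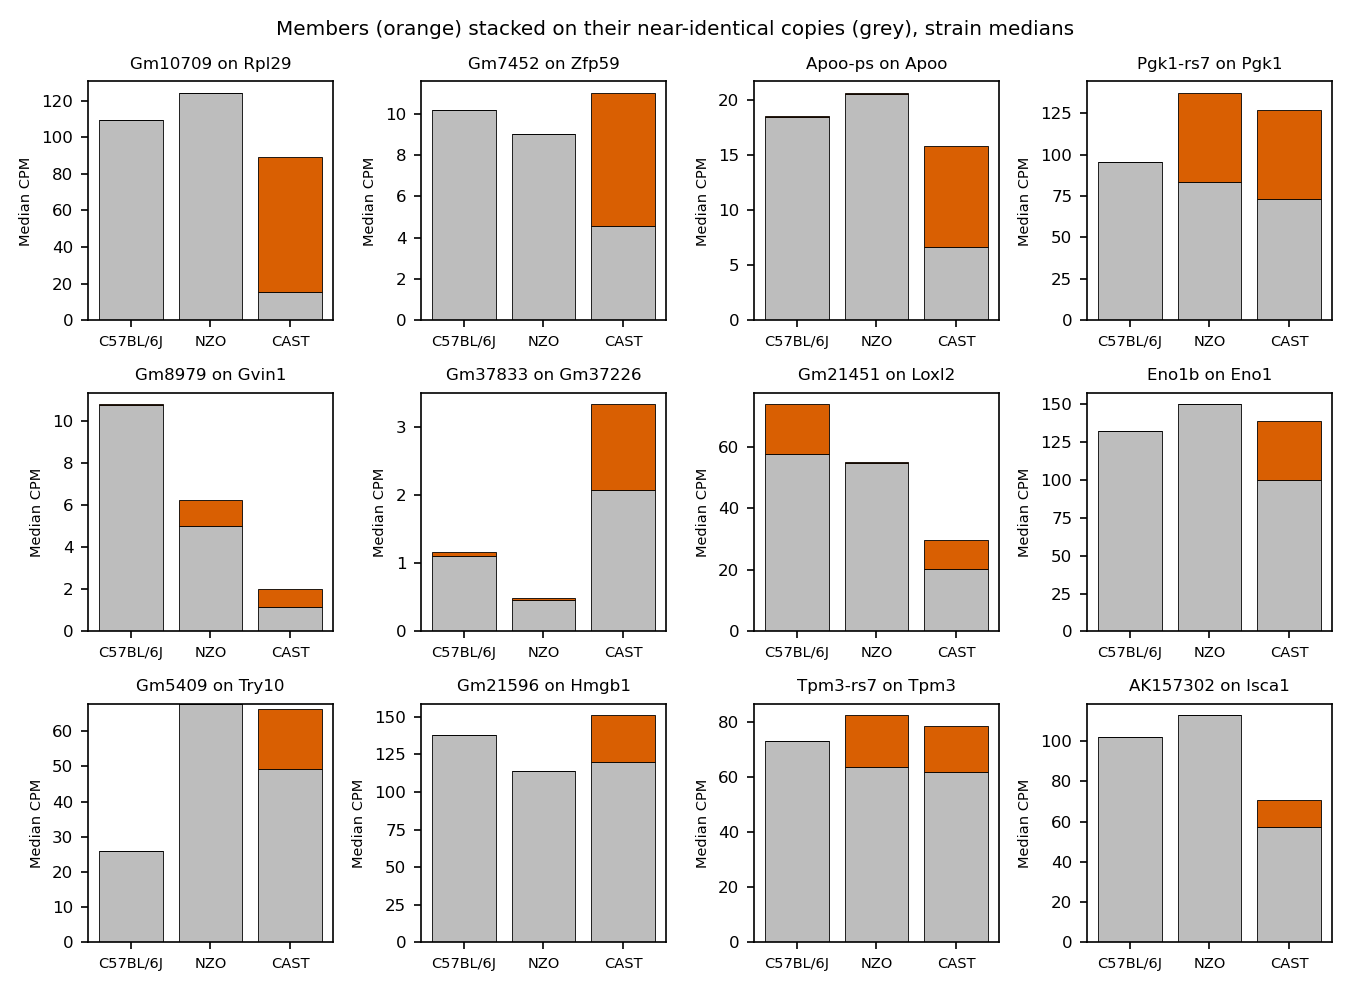
Strain medians in CPM of the copy (grey) and the member (orange) for 12 pairs, stacked for C57BL/6J, NZO/HlLtJ and CAST/EiJ. The grey part of the Rpl29 stack is lowest in CAST/EiJ, where Gm10709 made up 82.0% of the pair, and the stacks of Pgk1 with Pgk1-rs7 are higher in NZO/HlLtJ and CAST/EiJ than in C57BL/6J.

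The mitochondrial copy behaved on a scale of its own. The mitochondrial gene mt-Co2 had a median of 1028 CPM in C57BL/6J with 708 to 1521 over libraries, 799 CPM in NZO/HlLtJ with 543 to 1493, and 4.42 CPM in CAST/EiJ with 2.35 to 154. Gm13341, its nuclear copy, had 187 CPM in CAST/EiJ and under 0.1 CPM in the other strains. The more abundant copy of the same sequence, Gm28661 on chromosome 1, was at 1205, 838 and 1564 CPM. The 16 bases that differ between Gm13341 and mt-Co2 on the reference are printed in part above. Which of these bases CAST/EiJ mitochondrial DNA carries was not tested.

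Members lay close together in places. Within 500 kb of another member lay 28 members, in 11 clusters. The same count was not made for sets of other autosomal genes, so it does not show whether members lie closer than others. The 6 genes Gm13698, Gm13693, Gm13696, Gm13694, Gm13697 and Gm13691, copies of the splicing factor gene Cwc22, spanned chr2:83955693-83993045, were all lacking in C57BL/6J and NZO/HlLtJ, and had CAST/EiJ medians of 1.14 to 1.30 CPM. Gm13698, Gm13693, Gm13694 and Gm13696 had identical counts in every library and so carry the information of a single gene. Gm13341 and Gm13340, both copies of mitochondrial sequence, lay at chr2:22587291-22589647. Zfp607 and RP23-73F23.5, both lacking in NZO/HlLtJ alone, lay at chr7:27857527-27884510, next to Zfp59, which was at 9.01 CPM in that strain. Gm16867 and Gm21451, also lacking in NZO/HlLtJ alone, lay at chr14:69363504-69503362.

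The other clusters mixed classes or were wider. Alms1-ps2, Gm9769 and Cml2 lay at chr6:85774393-85869158, and the first and second of these were lacking in C57BL/6J alone while Cml2 was lacking in both strains. Gm10163, Gm2396 and Gm37833 lay together on chromosome 9, and further clusters held Gm2427 with 4933407L21Rik, Gm26594 with Hist2h2bb, Myo1h with Gm9936, and Prodh2 with Sbsn. Chromosome 2 held the most members with 13, followed by chromosome 7 with 12. These counts were not set against the number of genes per chromosome. Genes next to members were compared between the strain that lacked the member and CAST/EiJ. For members lacking in both strains, the higher of the neighbour's C57BL/6J and NZO/HlLtJ medians was used. Of 113 neighbours that were no members and reached 1 CPM in a strain, 83 lay within 2-fold of their CAST/EiJ median. This share was not taken over all genes. For example, Vta1, which lies 0.031 kb from Nmbr, was at 24.1, 22.3 and 22.5 CPM in C57BL/6J, NZO/HlLtJ and CAST/EiJ.

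Diet was tested within strains. The choice of members used no diet difference, but its strain medians ran over both diets and both sexes. Cck, Il1rn, Serpina3g, H19 and Gm8979, among others, reached a median of 1 CPM only in NZO/HlLtJ. A rise on 44% fat or in males there could have helped such genes become members. The direction of the members' changes in NZO/HlLtJ is therefore not independent of the choice. In NZO/HlLtJ, 12 of the 37 members present there changed between 44% and 10% fat at an adjusted p under 0.05, and 10 of these were higher on 44% fat. All 37 passed the filter on low counts. By the same edgeR quasi-likelihood test, 34.2% of all 20306 genes tested changed in NZO/HlLtJ, so the members' share of 32.4% was close to the background. In the higher direction the background was 17.3%, and in the lower direction it was 16.9%. The median log2 fold change was 0.24 over the 37 members and -0.02 over all genes tested. With the number series of the sample codes as a factor, which the labels do not explain and which is partly tied to diet within each sex of NZO/HlLtJ, 13 members were called, and the counts for sex (9), for the difference from CAST/EiJ (8) and for sex in CAST/EiJ (2) given below were the same with it. In the same order, the counts over all 20306 genes tested with this factor were 7445, 6036, 5352 and 141.

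Cck changed most. Its levels in NZO/HlLtJ females were 0.773, 0.682, 0.569 and 1.03 CPM on 10% fat and 2.05, 17.0, 15.2 and 9.01 CPM on 44% fat. In NZO/HlLtJ males they were 0.463, 2.30 and 19.9 CPM on 10% fat and 96.3, 70.4 and 87.7 CPM on 44% fat. Every library on 44% fat was above every library of the same sex on 10% fat, and male 10% fat replicate 3 stood above its group. The log2 fold change, as the mean over the sexes, was 3.77 with a standard error (SE) of 0.51 and an adjusted p of 1.59e-06 by edgeR's test. Without male 10% fat replicate 3 it was 5.04.

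Il1rn, whose product blocks interleukin 1 signalling, was at 0.298, 0.418, 0.625 and 0.167 CPM in females on 10% fat and 2.96, 1.62, 3.36 and 2.26 CPM in females on 44% fat. Males had 0.552, 1.18 and 3.90 CPM on 10% fat and 9.05, 5.95 and 10.4 CPM on 44% fat. The diets did not overlap within either sex, and the log2 fold change was 2.56 (SE 0.47, adjusted p = 7.2e-05, edgeR). H2-Ea-ps was at 13.1, 9.83, 13.1 and 9.79 CPM in females on 10% fat and 54.4, 15.7, 19.9 and 27.2 CPM in females on 44% fat. Males had 14.1, 31.1 and 36.0 CPM on 10% fat and 103, 94.2 and 179 CPM on 44% fat, again without overlap. The log2 fold change of H2-Ea-ps was 1.90 (SE 0.30, adjusted p = 1.69e-05, edgeR). H2-Eb1, the partner chain, was at 32.7 to 41.6 CPM in females on 10% fat and 46.6 to 176 CPM in females on 44% fat, and at 50.3 to 125 CPM in males on 10% fat and 289 to 618 CPM in males on 44% fat.

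Cyp2c70, a cytochrome P450 of the liver that makes muricholic acids from bile acids, was at 0.136, 0.628, 0.190 and 0.143 CPM in females on 10% fat and 0.737, 0.700, 1.87 and 1.40 CPM on 44% fat. Males had 0.662, 0.747 and 1.65 CPM on 10% fat and 3.30, 3.84 and 11.6 CPM on 44% fat. Its log2 fold change was 2.45 (SE 0.44, adjusted p = 5.22e-05, edgeR), at levels that never exceeded 12 CPM. Serpina3g, an intracellular serpin of immune cells, lay between 0.036 and 0.176 CPM in females on 10% fat and between 0.252 and 4.98 CPM in females on 44% fat. In males it lay between 0.960 and 2.48 CPM on 10% fat and between 6.84 and 20.8 CPM on 44% fat, without overlap of the diets in either sex. Its log2 fold change was 3.73 (SE 0.95, adjusted p = 0.00251, edgeR).

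H19, an imprinted long non-coding RNA, was at 0.036 to 0.915 CPM in females on 10% fat and 0.686 to 6.04 CPM on 44% fat, with 0.221 to 1.93 CPM and 2.72 to 6.32 CPM in males. The female groups overlapped, and the log2 fold change was 2.51 (SE 0.67, adjusted p = 0.0036, edgeR). Cpz, a carboxypeptidase of the extracellular matrix, had a log2 fold change of 1.69 (SE 0.51, adjusted p = 0.0096, edgeR) and was highest in males on 44% fat, at 2.96, 2.42 and 6.04 CPM. The adjusted p of Cpz was 0.0544 with NZO/HlLtJ libraries alone and 0.0565 without the 5 libraries named above. The pseudogene Gm8979 rose by a log2 fold change of 1.02 (SE 0.32, adjusted p = 0.0135, edgeR), a call that was lost without female 44% fat replicate 1, at an adjusted p of 0.0565. It was also lost with library totals in place of TMM, at an adjusted p of 0.0546, and without the 5 libraries, at 0.0621.

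The calls for Eno1b and Gm9769 rest on low levels of genes with close copies. Eno1b was at 0.069 to 0.175 CPM in females on 10% fat and 0.121 to 0.485 CPM on 44% fat, and at 0.101, 0.031 and 0.051 CPM in males on 10% fat and 0.572, 0.033 and 0.616 CPM in males on 44% fat. The diets overlapped in both sexes, and Eno1b had a log2 fold change of 2.00 as the mean over the sexes (SE 0.45, adjusted p = 0.000695, edgeR). In females the parent Eno1 also overlapped between diets, at 134 to 150 CPM on 10% fat and 137 to 181 CPM on 44% fat. In males Eno1 was at 117 to 208 CPM on 10% fat and 244 to 302 CPM on 44% fat. The diets thus separated Eno1 but not Eno1b in males. The part of Eno1 reads in the counts of Eno1b was not tested. Gm9769 had a log2 fold change of 3.04 (SE 1.13, adjusted p = 0.0358, edgeR), and the call was lost in 9 of 14 repeats that left out a single NZO/HlLtJ library. Those 9 repeats left out female 10% fat replicates 1, 2 and 3, female 44% fat replicates 3 and 4, male 10% fat replicates 2 and 3, or male 44% fat replicates 2 and 3, and the adjusted p ranged from 0.0509 to 0.0976.

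Of the members that fell, 4932438H23Rik was at 3.05, 2.34, 4.01 and 2.98 CPM in females on 10% fat and 2.29, 1.33, 1.73 and 1.22 CPM on 44% fat. Males had 2.43, 2.49 and 1.31 CPM on 10% fat and 0.892, 1.05 and 0.355 CPM on 44% fat. The log2 fold change was -1.04 (SE 0.23, adjusted p = 0.000487, edgeR), and the diets did not overlap within either sex. Prodh2 fell by 1.17 on the log2 scale (SE 0.35, adjusted p = 0.00818, edgeR), from levels of 0.129 to 0.418 CPM on 10% fat to 0.022 to 0.182 CPM on 44% fat.

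Markers of other cell types moved with the diet in NZO/HlLtJ. All 10 macrophage markers rose with a median log2 fold change of 1.93, as did all 15 interferon response genes (median 1.32), 7 of 7 fibroblast and mural genes (1.28), 5 of 6 duct genes (1.72), 7 of 10 lymphocyte genes and 3 of 3 plasma cell genes. Of the 10 beta cell markers, 7 fell and the median was -0.76. Of 15 acinar genes 1 passed the test, though the median log2 fold change over the list was 1.09. The acinar sum had medians of 25434 CPM on 10% fat and 64175 CPM on 44% fat in females, whose diets overlapped, and of 46409 and 131188 CPM in males, whose diets did not. With the acinar score as a covariate, 11 members were called for diet and 6 for the difference from CAST/EiJ given below. Over all 20306 genes tested, these counts were 6307 and 4366. The macrophage genes summed to 61.7 to 76.3 CPM in females on 10% fat, 138 to 208 CPM in females on 44% fat, 83.2 to 245 CPM in males on 10% fat and 500 to 849 CPM in males on 44% fat. Il1rn, H2-Ea-ps and Serpina3g were likewise lowest in females on 10% fat and highest in males on 44% fat. This order was not particular to immune genes. Cyp2c70 had it too, Cck was also highest in males on 44% fat, and 4932438H23Rik had the reverse order. The part of macrophages or of cell types other than acinar cells in the members' changes was not tested.

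In the other strains, edgeR's test called no diet effect among members. In CAST/EiJ, which has the 37 members just described and all others, 0 of 112 members passed by edgeR, against 0.0295% of all genes. Of the 112, 3 had an unadjusted p under 0.05 by edgeR. DESeq2 called 1 member, and 36 of 22784 genes. The log2 fold changes of the 112 members lay between -0.78 and 0.95. In C57BL/6J, which has a separate set of 28 members, 0 of the 28 passed by edgeR or DESeq2, against 0.0246% of all genes, none had an unadjusted p under 0.05, and log2 fold changes lay between -0.36 and 0.63.

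The diet effect itself differed between NZO/HlLtJ and CAST/EiJ for 8 of the 37 members that both strains transcribe, and 25.0% of all genes differed in this test. It was higher in NZO/HlLtJ for 7 of the 8. Of all genes tested, 12.4% differed in that direction and 12.5% in the other. The difference in log2 fold change was 3.52 for Cck (SE 0.80, adjusted p = 0.00181, edgeR), 3.30 for Il1rn (0.69, 0.000832), 2.69 for Cyp2c70 (0.59, 0.0012), 1.99 for H2-Ea-ps (0.40, 0.000832) and 2.02 for Eno1b (0.51, 0.00409). For 4932438H23Rik it was -1.03 (0.31, 0.0143). In CAST/EiJ, Cck stayed between 0.058 and 0.518 CPM, Il1rn between 0.037 and 0.638 CPM, and Cyp2c70 between 0.482 and 1.48 CPM over all 15 libraries. H2-Ea-ps in CAST/EiJ was at 4.50 to 11.8 CPM in females on 10% fat and 8.56 to 12.1 CPM in females on 44% fat.

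The differences for H19 and Serpina3g depended on single libraries. For H19 the difference was 2.73 (SE 0.94, adjusted p = 0.0315, edgeR), and it was 1.97 with an adjusted p of 0.11 without CAST/EiJ female 10% fat replicate 4, which held 1.53 CPM. The call for H19 was also lost, at an adjusted p of 0.0502 to 0.0896, without CAST/EiJ male 10% fat replicates 2 or 3, CAST/EiJ male 44% fat replicate 3, NZO/HlLtJ female 44% fat replicate 3, NZO/HlLtJ male 10% fat replicates 1 or 2, or NZO/HlLtJ male 44% fat replicate 3. For Serpina3g it was 3.95 (SE 1.29, adjusted p = 0.0228, edgeR), and 1.10 with an adjusted p of 0.609 without CAST/EiJ male 10% fat replicate 3. It was 3.24 with an adjusted p of 0.113 without CAST/EiJ female 10% fat replicate 2, and 3.80 with an adjusted p of 0.0501 without NZO/HlLtJ male 10% fat replicate 1. CAST/EiJ male 10% fat replicate 3 held Serpina3g at 7.05 CPM and a macrophage sum of 452 CPM, while the other CAST/EiJ libraries had macrophage sums of 55.5 to 134 CPM. Without the 5 libraries named above, 4 of the 8 differences were called, and Cck, Il1rn, Cyp2c70 and H2-Ea-ps were those 4. Of all genes tested without these libraries, 2672 of 21181 differed. Between C57BL/6J and CAST/EiJ, the diet effect of 0 of 28 shared members differed by edgeR or DESeq2, with none at an unadjusted p under 0.05 and a background of 0.0148%.

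**Figure D5:**
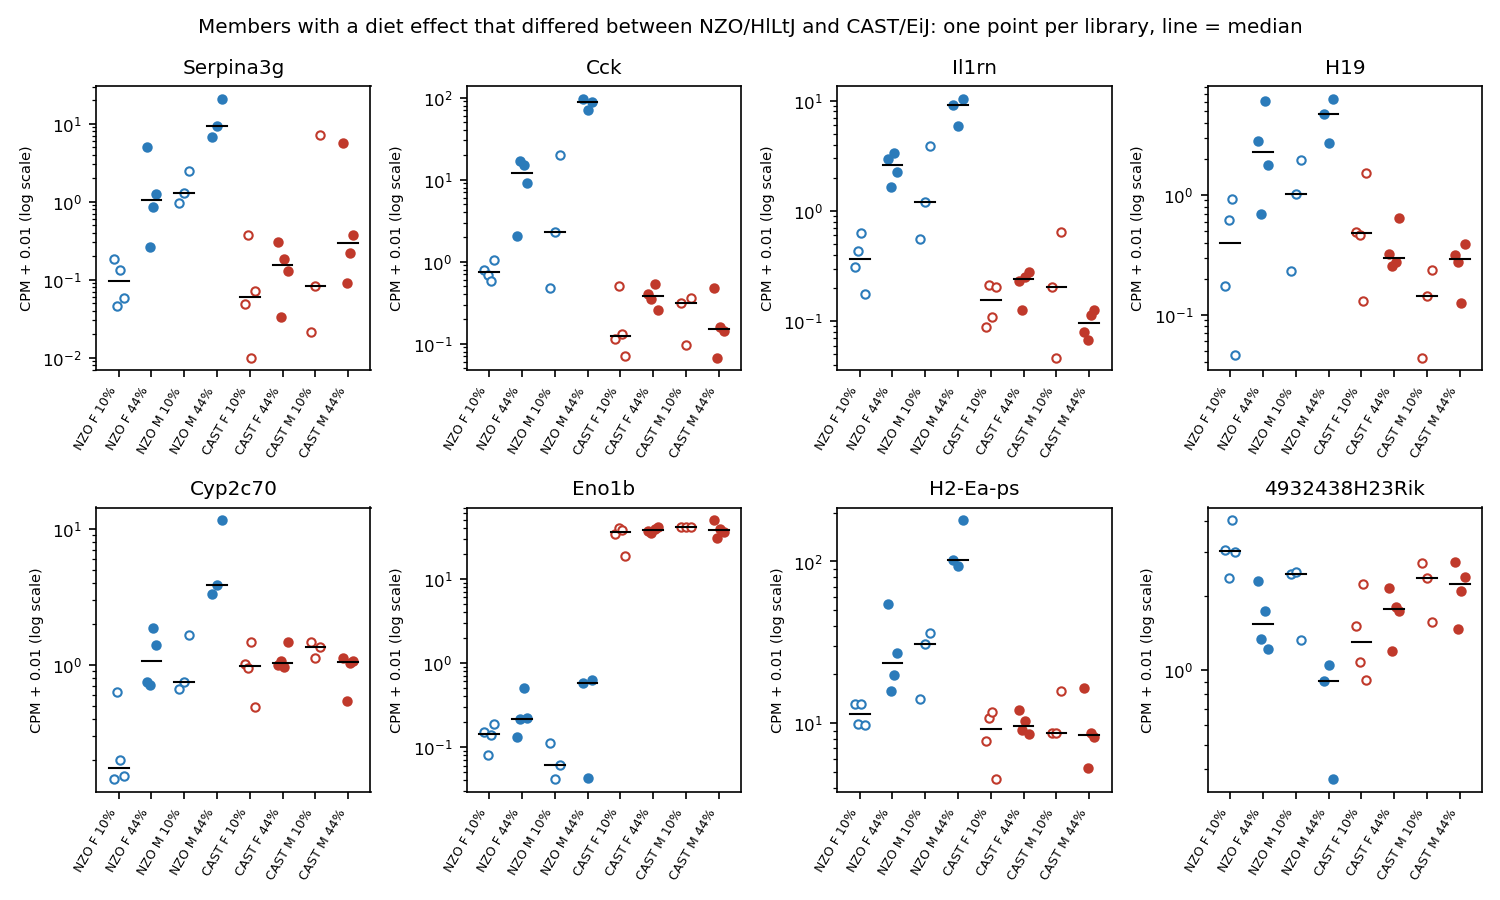
CPM per library on a log10 axis for the 8 members whose diet effect differed between NZO/HlLtJ (blue) and CAST/EiJ (red), with open points on 10% fat and filled points on 44% fat, by sex. In NZO/HlLtJ males on 44% fat, Cck lies at 70.4 to 96.3 CPM and H2-Ea-ps at 94.2 to 179 CPM, above all other libraries shown.

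Sex was tested in the same NZO/HlLtJ libraries. Of the 37 members, 9 differed between males and females averaged over the diets, 7 of them higher in males, and 29.3% of all genes tested differed. Higher in males were 14.5% of all genes tested, and lower 14.7%. The log2 difference of male minus female was 3.50 for Serpina3g (SE 0.90, adjusted p = 0.00344, edgeR), 3.19 for Cck (0.48, 8.65e-06), 2.17 for Cyp2c70 (0.42, 0.000202), 2.08 for Il1rn (0.45, 0.000625), 1.87 for Cpz (0.50, 0.00452), 1.74 for H2-Ea-ps (0.29, 4.85e-05) and 1.42 for Gm8979 (0.32, 0.000934). Without male 10% fat replicate 3 the difference was 1.91 for Cck and 1.48 for Il1rn, both still called, and 1.36 for Cpz with an adjusted p of 0.0551. Tdrd6 had a log2 difference of -0.91 (SE 0.30, adjusted p = 0.0181, edgeR), and 4932438H23Rik of -0.79 (SE 0.23, adjusted p = 0.00806, edgeR). The call for Tdrd6 was lost without female 44% fat replicate 2, male 10% fat replicates 2 or 3, or male 44% fat replicate 3, at an adjusted p of 0.0503 to 0.0785. All 10 macrophage markers and all 15 interferon response genes were also higher in males, and 7 of 10 beta cell markers were lower.

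Whether the diet effect differed between the sexes of NZO/HlLtJ was tested as well. The call was made for 1 of 37 members, and for 9.26% of all genes, with 4.08% of all genes higher in this difference and 5.18% lower. Atg4a-ps had a difference of -2.90 on the log2 scale (SE 0.96, adjusted p = 0.0486, edgeR) at levels of 0 to 0.300 CPM in NZO/HlLtJ, a strain where it barely exceeded the threshold. The call was lost without any of 9 single NZO/HlLtJ libraries, at an adjusted p of 0.057 to 0.203, the highest without male 44% fat replicate 3. The others of the 9 were female 10% fat replicates 1, 2 and 4, female 44% fat replicates 2 and 3, and male 10% fat replicates 1, 2 and 3. For Cck the difference between the sexes was -0.60 with a 95% interval of -2.41 to 1.22, so the test did not resolve whether the effect was alike in both.

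In CAST/EiJ, 2 of 112 members differed by sex, both higher in males, against 0.719% of all genes, with 0.291% of all genes higher and 0.428% lower. Nmbr was at 10.3, 13.4, 6.30 and 2.73 CPM in females on 10% fat, 8.68, 8.20, 12.9 and 12.5 CPM in females on 44% fat, 18.5, 19.8 and 17.8 CPM in males on 10% fat, and 22.5, 12, 23.9 and 17.5 CPM in males on 44% fat. All but 1 male library exceeded every female library. The log2 difference of Nmbr was 0.91 (SE 0.16, adjusted p = 0.00161, edgeR), and 0.74 with an adjusted p of 0.384 without the 5 libraries, 3 of which are CAST/EiJ females. Cpz was at 0.287 to 2.21 CPM in females and 2.34 to 7.54 CPM in males without overlap, with a log2 difference of 1.97 (SE 0.48, adjusted p = 0.0374, edgeR). The adjusted p of Cpz rose above 0.05 without any of 10 single libraries, to between 0.0561 and 0.102, and its log2 difference then lay between 1.72 and 2.04. Those libraries were CAST/EiJ female 10% fat replicates 1, 3 and 4, female 44% fat replicates 1, 2 and 4, male 10% fat replicates 1 and 3, and male 44% fat replicates 1 and 3. In C57BL/6J, 0 of 28 members differed by sex by edgeR or DESeq2, against 0.276% of all genes, 0.0492% higher and 0.227% lower in males, and 1 had an unadjusted p under 0.05.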

How the data were processed

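Islet RNA of 45 libraries was analysed from 2 matrices of the series. The authors deposited estimated counts per gene, not normalised, of which 23.6% were not whole numbers, and variance-stabilised values on a log2 scale, used here only to look at members' levels. GRCm38 and DESeq2 are named in the submitters' processing notes without their role, and no aligner, counting program or allowance for strain variants is named in the sources used here. Levels of near-identical copies and differences between strains depend on these steps. Every count column was matched to a sample through its code in the labels.

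CPM was computed over library totals. Estimated counts were rounded to whole numbers and tested in edgeR 4.0.16 (limma 3.58.1, R 4.3.3) by its robust quasi-likelihood F test after TMM scaling, for the 20306 genes that its default filter on low counts kept. One model held all 45 libraries, and contrasts were means over the sexes or the diets. Every adjusted p in the text is from this test with Benjamini-Hochberg adjustment over all genes tested, unless DESeq2 1.42.0 is named. Members were counted in a comparison when none of its strains lacked them. On simulated data for the diet effect in NZO/HlLtJ with 19414 genes, the test recovered 58.3% of 96 genes at a log2 change of 1 and 100% of 96 at a log2 change of 2, with 4 false calls.

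Whether libraries came from separate mice is not in the labels, so the spread behind each p-value may be technical. Replicate numbers follow accession order. Gene types, transcripts and sequences came from GENCODE vM21 on GRCm38, in which all 112 members were found, and copies were sought among its transcripts. Named were the 12 highest members of each class, up to 8 called members per comparison by size of change, clustered members, relatives, neighbours and genes near the thresholds, and some genes that this rule names are not reported here. Further members were named after their values were seen. The members and lists were chosen with earlier results of these data known. Alternatives were other normalisations, no filter, DESeq2, the number series of the sample codes as a factor, an acinar score (mean log2 CPM of acinar markers) as a covariate, the libraries of the compared strains alone, leaving out libraries, and other thresholds for membership. Python 3.11.15, pandas 2.3.3, numpy 2.4.6 and matplotlib 3.10.9 were used.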

Additional observations from a re-analysis of the deposited data

Results flagged for a closer look

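The diet effect differed between NZO/HlLtJ and CAST/EiJ, by the interaction test of edgeR, for Serpina3g (log2 difference 3.95), Cck (3.52), Il1rn (3.30), H19 (2.73), Cyp2c70 (2.69), Eno1b (2.02), H2-Ea-ps (1.99) and 4932438H23Rik (-1.03). The diet effect differed between the sexes of NZO/HlLtJ for Atg4a-ps (-2.90). Leaving out single libraries ended the call for Serpina3g, H19 and Atg4a-ps, as described above, and did not end it for the other 6.

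Single libraries stood apart within groups of 4. In NZO/HlLtJ females on 10% fat, Gm9769 was at 1.16 CPM in replicate 4 against 0.00391 to 0.155 CPM in the others, and Cyp2c70 at 0.628 CPM in replicate 2 against 0.136 to 0.190 CPM. In CAST/EiJ females on 10% fat, replicate 2 held Cck at 0.495 CPM against 0.0616 to 0.121 CPM, and Serpina3g at 0.362 CPM against 0 to 0.0616 CPM. In CAST/EiJ females on 44% fat, H19 was at 0.626 CPM in replicate 4 against 0.244 to 0.309 CPM. In CAST/EiJ males on 44% fat, Serpina3g was at 5.57 CPM in replicate 1 against 0.0808 to 0.362 CPM, and Cyp2c70 at 0.531 CPM in replicate 2 against 1.03 to 1.12 CPM. These are 7 of 58 groups examined, and chance alone flags about 1 in 20.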

How the results depend on the processing

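No paired analysis was possible because the labels give no replicate numbers that pair libraries across groups. The number of members, 112, was 182 with lacking set under 0.2 CPM, 195 with presence at 0.5 CPM, 63 with presence at 2 CPM and 49 when every library of the lacking strain had to be under 0.1 CPM. With TMM factors it was 118, of which 108 were among the 112. DESeq2 called 1 member for diet and 4 for sex in CAST/EiJ, where edgeR called 0 and 2. Over all 22784 genes that DESeq2 tested, it called 36 and 327. The sex count in CAST/EiJ was 1 with the acinar score as a covariate and 0 without the 5 libraries named in the report. Over all genes it was 148 of 20306 and 19 of 21181 in these settings, and 146 of 20306 in the main test. The single diet-by-sex call in NZO/HlLtJ became 0 with RLE size factors, library totals, no filter, the strain's libraries alone or without the 5 libraries. The count over all genes was 1881 in the main test and 1892, 193, 1736, 50 and 164 in these settings. The count of diet differences between NZO/HlLtJ and CAST/EiJ fell from 8 to 4 without the 5 libraries. Over all genes tested it fell from 5067 of 20306 to 2672 of 21181. The cause of these changes was not tested, though settings with fewer libraries have less information.

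Leaving out single libraries gave 11 to 13 calls for diet in NZO/HlLtJ, 8 to 9 for sex, 0 to 2 for diet by sex, 6 to 9 for the difference from CAST/EiJ, and 1 to 3 for sex in CAST/EiJ. It gave 0 to 0 for diet in CAST/EiJ and C57BL/6J, for sex in C57BL/6J and for their diet difference. Of 570 such values for called members, 525 kept their call and 45 lost it, and of 256 values under other settings, 229 kept it and 27 lost it. None changed sign. Cck, Il1rn, H2-Ea-ps and Cyp2c70 kept their calls in every setting of the diet, sex and interaction comparisons in which they were called. Low counts limit the members most in the strain that lacks them, where 44.0% of values rounded to a count of 0.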
